A study of Mus musculus with 12 samples.

Results

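The proteasome genes were taken from the annotation by symbol, as every protein-coding mouse gene whose name begins with Psm, a letter from a to g and a number. The rule found 51 genes among the 55450 genes of the count table, and 50 of them had enough counts to be tested. RNAseq was performed on the tibialis anterior (TA), a fast muscle of the lower leg, of wild-type mice on the 129Pas genetic background at E18.5 (late in gestation), 2 wks and 7 wks of age, with 4 mice at each age. None of the mice carried an engineered allele or received a treatment. The libraries held between 63018968 and 123449246 gene counts. The defining markers of the labelled tissue were present: 8 muscle fibre genes, among them Acta1, Ckm and Ttn, summed to 14007 to 24508 CPM (counts per 1e+06 after scaling) at E18.5, 121220 to 149950 at 2 wks, then 128330 to 165660 at 7 wks.

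The proteasome is the protease that degrades most ubiquitin-tagged proteins of the cell. Its barrel, the 20S core, is built from rings of alpha subunits (Psma genes), which gate the entrance, and rings of beta subunits (Psmb genes), among which Psmb5, Psmb6 and Psmb7 carry the proteolytic sites. The 19S regulatory particle caps the barrel and recognises, unfolds and threads the substrate through a base of ATPases (Psmc genes) and a lid (Psmd genes), while alternative caps (Psme genes) and dedicated assembly chaperones (Psmg genes, Psmd5, Psmd9 and Psmd10) complete the family. In skeletal muscle the proteasome is known for the turnover of myofibrillar proteins and for its part in atrophy. By role, the 51 genes comprised 7 alpha and 7 beta subunits of the core, 3 inducible immunoproteasome subunits, 2 tissue-restricted core subunits, 6 base ATPases, 3 other base subunits, 8 lid subunits, 5 activators, 1 inhibitor, 4 chaperones of the core and 3 of the base. The symbol rule also admitted 2 genes that encode interacting proteins and not subunits, Psmc3ip, a factor of meiotic recombination, and Psme3ip1.

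Most proteasome genes rose between E18.5 and 2 wks, and a small group rose between 2 wks and 7 wks. In the first interval 34 of the 50 tested genes (68%) rose and 5 (10%) fell, where 31.5% of all 19276 tested genes rose and 34.2% fell (edgeR quasi-likelihood test, Benjamini-Hochberg adjusted p below 0.05 over all tested genes, as for every call here). Their median log2 fold change was 0.74, against -0.09 over all tested genes. Between 2 wks and 7 wks 10 genes (20%) rose and 0 fell, against 13.5% and 13.9% of all tested genes, and the median was 0.27 against -0.03. Counted at an unadjusted p below 0.05 the number that fell was also 0. DESeq2 called 13 higher and 0 lower, against 2975 and 3123 of all 19276 tested genes. Across the whole span from E18.5 to 7 wks, a comparison that shares its libraries with the other comparisons, 40 rose and 4 fell (34.3% and 37.1% of all tested genes). The plot of fold changes by role shows that the early change was uneven among the roles.

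**Figure D1:**
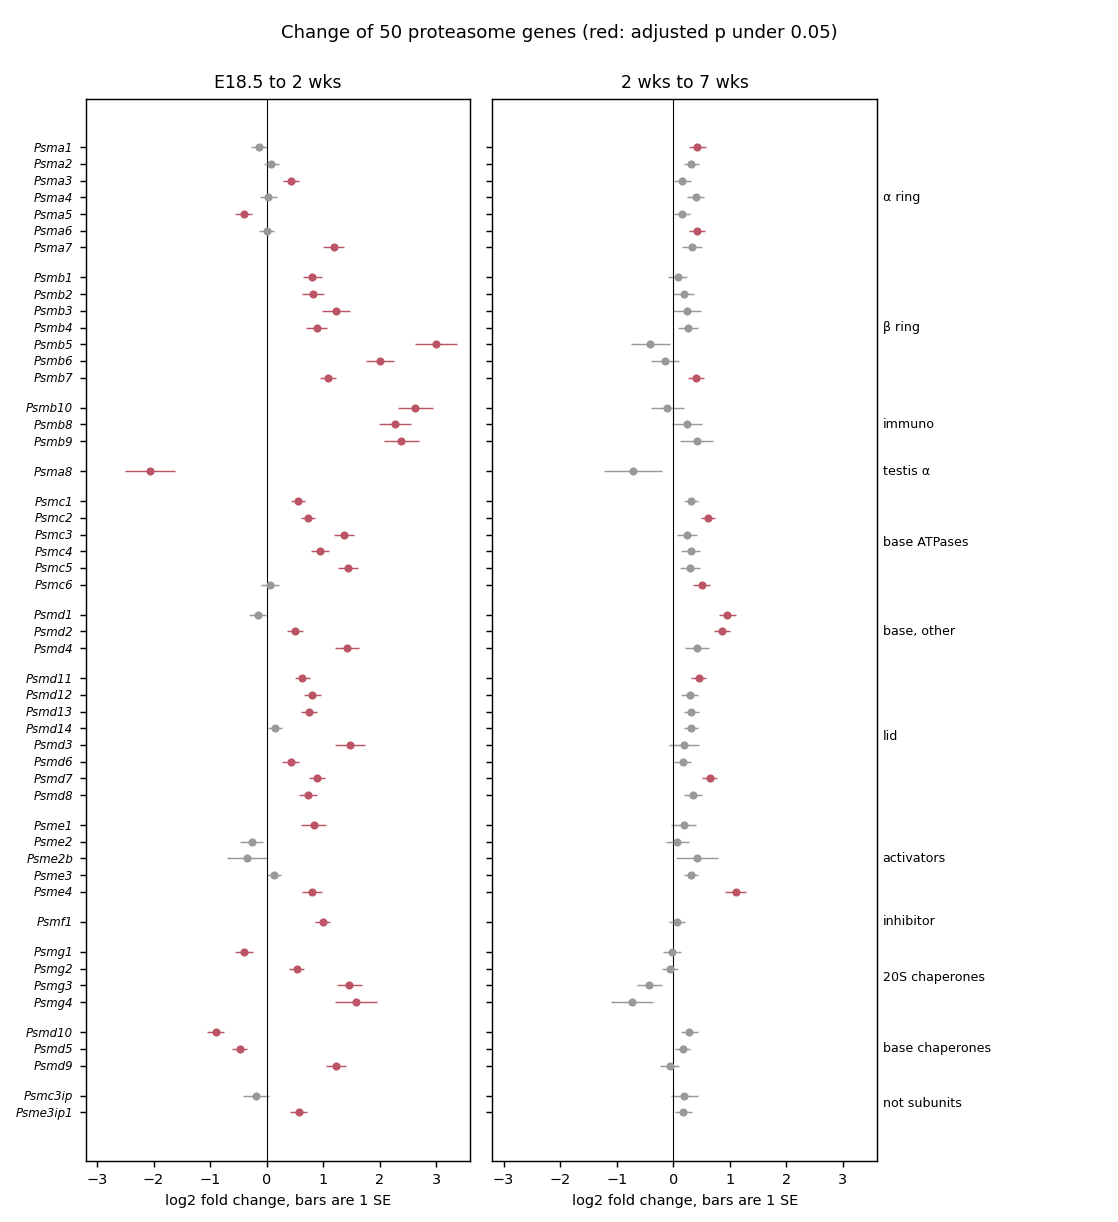
Log2 fold change with 1 SE of the 50 tested proteasome genes, grouped by role, from E18.5 to 2 wks (left) and from 2 wks to 7 wks (right); red points passed the edgeR test after adjustment and grey points did not. The 7 beta ring genes and the 3 immunoproteasome genes lie to the right of 0 at left, while Psme4, Psmd1 and Psmd2 lie farthest right in the later interval.

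These directions depend on how the libraries were scaled. The values above rest on trimmed-mean (TMM) scaling, whose factors ran from 1.62 to 1.77 at E18.5, 0.810 to 0.946 at 2 wks, then 0.667 to 0.699 at 7 wks. As a share of all counts, the 51 genes held 0.464% to 0.513% at E18.5, 0.366% to 0.427% at 2 wks, then 0.379% to 0.467% at 7 wks. With scaling to total counts the median of all tested genes moved to -1.02 in the first interval, and 7 proteasome genes then rose and 22 fell, with a median of -0.20. Under that scaling 2550 of all 19276 tested genes rose and 11923 fell, the background for every early number given here with total counts. Relative to the median of all genes the proteasome median was 0.83 higher with TMM scaling and 0.82 higher with total counts. In the later interval total counts gave 3 higher and 2 lower, against 948 and 5392 of all tested genes. The 7 genes that rose early under either scaling were Psmb5, Psmb6, Psmb8, Psmb9, Psmb10, Psmc3 and Psmc5, and the 3 that rose late under either were Psme4, Psmd1 and Psmd2. In such bulk tissue fewer cells of a type and less RNA per cell cannot be told apart. Markers of other tissues moved in the same first interval. All 8 muscle fibre genes rose (median log2 2.67), while 4 of 4 adipocyte genes fell (-4.65), as did 3 of 3 tested cartilage and bone genes (-3.93), 3 of 4 epidermis genes (-6.12) and 3 of 6 fibroblast genes (-0.80). Of 5 endothelium genes 3 rose and 0 fell (0.70). Summed fibroblast markers went from between 5963 and 12271 CPM at E18.5 to between 4466 and 6128 at 2 wks and between 971 and 4080 at 7 wks. Adipocyte markers summed to 9.98, 12.95, 331 and 296 CPM in E18.5 replicates 1 to 4 and to at most 7.35 in any postnatal library. Epidermis markers summed to 7.45, 48.9, 3.68 and 1.71 in the same E18.5 libraries and to at most 7.58 in the postnatal ones. Cartilage and bone markers summed to between 22.5 and 139.5 at E18.5 and to at most 10.02 after birth. The adipocyte and epidermis levels thus differed widely between the E18.5 libraries. The part of these marker levels in the proteasome values was not tested.

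Psmb5, the chymotrypsin-like subunit of the core, had the largest log2 change of any proteasome gene from E18.5 to 2 wks (ENSMUSG00000022193, GRCm39 chr14:54850776-54855481, minus strand). Its CPM were 2.33, 6.94, 3.68 and 3.80 in the 4 E18.5 libraries, 30.1, 32.1, 26.9 and 43.6 at 2 wks, and 12.2, 20.7, 39.9 and 27.1 at 7 wks. Every postnatal library lay above every E18.5 library, whereas the 2 wks and 7 wks libraries overlapped. The rise to 2 wks was 7.92-fold (log2 2.99 ± 0.37, SE, n = 4 mice at each age, edgeR adjusted p = 1.32e-05), and it remained without the low E18.5 replicate 1 (log2 2.79) and with total counts (log2 2.05). From 2 wks to 7 wks the log2 change was -0.41 ± 0.35 (edgeR adjusted p = 0.40).

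Psmb6, the caspase-like subunit, followed the same course at a higher level. It measured 29.3, 71.3, 51.0 and 50.3 CPM at E18.5, 214, 207, 179 and 207 at 2 wks, and 129, 161, 251 and 189 at 7 wks. The 2 wks libraries all exceeded the E18.5 libraries, by 4.0-fold on average (log2 2.00 ± 0.25, edgeR adjusted p = 1.47e-05), and overlapped with the 7 wks libraries (log2 -0.15 ± 0.24, edgeR adjusted p = 0.69). Psmb7, the trypsin-like subunit, measured 141, 112, 132 and 143 CPM at E18.5, 268, 300, 274 and 284 at 2 wks, and 335, 355, 436 and 358 at 7 wks. Its 3 ages did not overlap. The first step was 2.13-fold (log2 1.09 ± 0.14, edgeR adjusted p = 1.64e-05) and the second 1.32-fold (log2 0.40 ± 0.14, edgeR adjusted p = 0.045), but with total counts the first step was no longer called (log2 0.16) and the second was 0.05. The second call was also lost without any 1 of 9 of the 12 libraries and in a fit with the mouse number as a replicate block (log2 0.39, edgeR adjusted p = 0.0751). The annotated Psmb7 transcript shares 2817 exonic bases with Nek6 on the opposite strand.

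**Figure D2:**
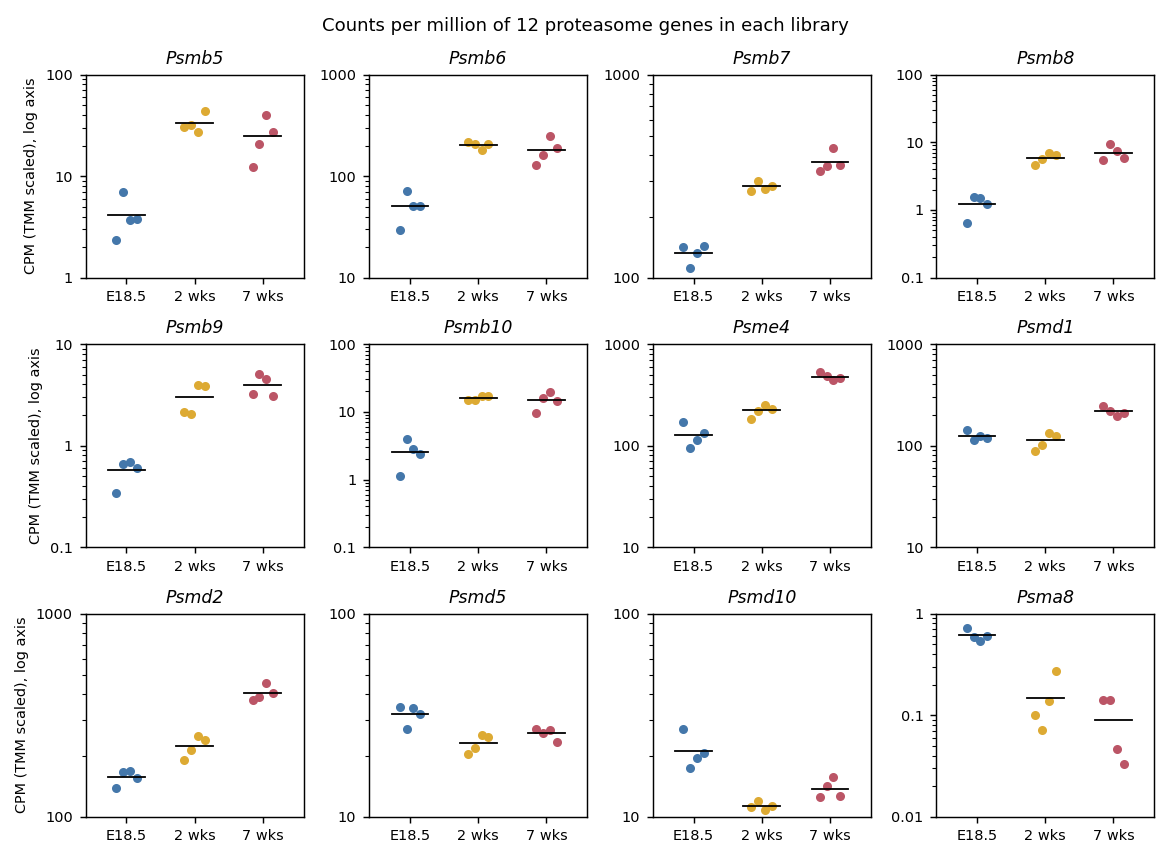
CPM, TMM scaled, of 12 proteasome genes in each of the 12 libraries on log axes; each point is 1 mouse and each bar the mean of 4. Psmb5, Psmb6 and the immunoproteasome genes Psmb8, Psmb9 and Psmb10 step up between E18.5 and 2 wks, and Psmd1 and Psme4 step up between 2 wks and 7 wks. Psmd10 and Psma8 are highest at E18.5 in every library, and Psmd5 is highest there in its mean only.

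All 7 members of the beta ring rose between E18.5 and 2 wks, where 31.5% of all tested genes did, Psmb5 and Psmb6 by the most. The 4 structural members, Psmb1 to Psmb4, rose by 1.75-fold to 2.33-fold, with Psmb3 the highest (log2 1.22, edgeR adjusted p = 0.000629). With total counts 2 of the 7 beta genes rose and 0 fell, their median log2 change going from 1.09 to 0.16. In the alpha ring 2 of 7 genes rose (28.6%, near the 31.5% of all tested genes), 1 fell (14.3%, against 34.2%) and 4 were not called. The alpha median was 0.03, against -0.09 over all tested genes. Psma7 rose 2.27-fold from 33.3, 50.3, 45.4 and 42.1 CPM at E18.5 to 95.6, 95.7, 94.5 and 102 at 2 wks (log2 1.18 ± 0.18, edgeR adjusted p = 8.65e-05). Psma3 rose 1.35-fold (log2 0.43), and Psma5 fell to 0.752 of its E18.5 level (log2 -0.41 ± 0.14, edgeR adjusted p = 0.021), a call that was lost when 2 wks replicate 3 or 4 was left out. With total counts 0 of the 7 alpha genes rose and 6 fell (median -0.90), against 2550 and 11923 of all 19276 tested genes (median -1.02). No test set one ring against the other.

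GC content moved with this contrast between the rings. Across the 50 tested genes, the log2 change to 2 wks and the GC content of the annotated transcript had a Spearman's rho of 0.67, a description across genes measured in the same libraries, and over all genes with a GC value rho was 0.39. After removal of the GC trend within each library, rho among the 50 genes was 0.15, 41 genes rose and 3 fell, and the alpha ring went from 2 to 6 members that rose. Of all 19276 tested genes, 6405 rose and 6034 fell with this correction. The beta ring still had 7 of 7 higher, with a median of 1.35 against 0.53 in the alpha ring. Psmb5 (log2 2.61) and Psmb6 (1.94) remained the beta genes with the largest values. The part of GC content in the original values was not tested beyond this correction.

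**Figure D3:**
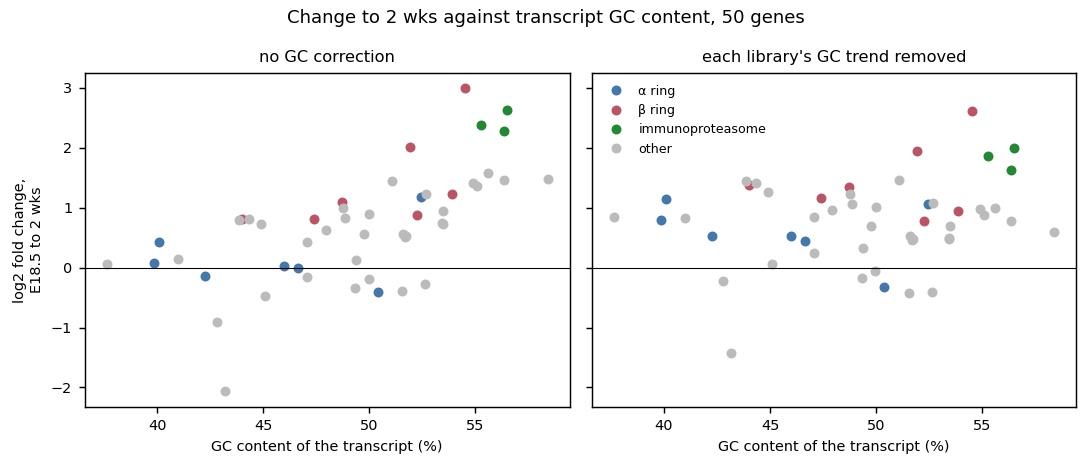
Early log2 change (2 wks over E18.5) against the GC content of the annotated transcript for the 50 tested proteasome genes, without correction (left) and with each library's GC trend removed (right); blue marks the alpha ring, red the beta ring, green the immunoproteasome subunits and grey the other genes. Values rise with GC content at left, where Spearman's rho is 0.67, and far less at right, where it is 0.15.

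Psmb5 was also the scarcest constitutive core gene per coding length. Mean CPM per kilobase of coding sequence, a scale on which levels of different genes can be set side by side although reads from long untranslated ends raise some of them, were 5.28 for Psmb5 at E18.5, 41.9 at 2 wks, then 31.5 at 7 wks. Psmb7, the most abundant of the beta ring, stood at 159, 338 and 447 on the same scale. The alpha genes ranged from 57.5 (Psma7) to 198 (Psma6) at E18.5 and from 116 (Psma5) to 297 (Psma3) at 7 wks. Within a library, the ratio of the highest to the lowest of the 14 core genes per coding length ran from 18.97 to 78.3 at E18.5, from 6.21 to 9.68 at 2 wks, then from 10.4 to 26.1 at 7 wks. All 2 wks libraries lay below all others in this ratio, while E18.5 and 7 wks overlapped.

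**Figure D4:**
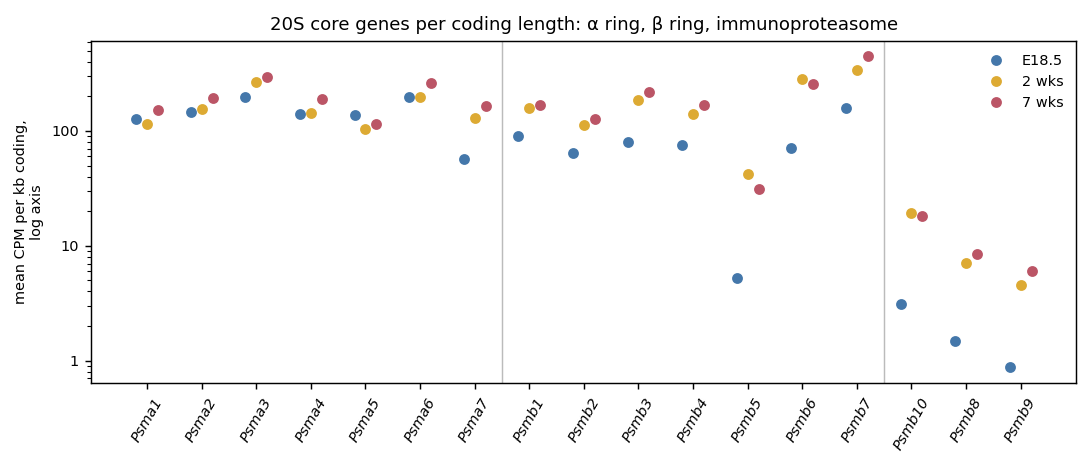
Mean CPM per kilobase of coding sequence (log axis, n = 4 mice at each age) of the alpha ring, the beta ring and the immunoproteasome genes, with grey lines between the groups. Psmb5 lies far below the other beta genes at E18.5, at 5.28, and the 3 immunoproteasome genes lie below all 14 constitutive core genes at E18.5, 2 wks and 7 wks.

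The promoters of Psmb5 and Psmb6, the constitutive core genes with the largest early change, are shown with that of Psme4, the gene with the largest late change, because all 3 hold the letters TGACNNNGC, the core of the antioxidant response element that the transcription factor NRF1 (Nfe2l1) is known to use at proteasome genes. The windows run from 250 bases before to 50 after the annotated start, 5′ to 3′ (RefSeq, build GRCm38.p6), with the matches in capitals. They lie at chr14:54617946-54618245, minus strand, at chr11:70525107-70525406, plus strand, and at chr11:30771525-30771824, plus strand, where the match is on the other strand.
Psmb5: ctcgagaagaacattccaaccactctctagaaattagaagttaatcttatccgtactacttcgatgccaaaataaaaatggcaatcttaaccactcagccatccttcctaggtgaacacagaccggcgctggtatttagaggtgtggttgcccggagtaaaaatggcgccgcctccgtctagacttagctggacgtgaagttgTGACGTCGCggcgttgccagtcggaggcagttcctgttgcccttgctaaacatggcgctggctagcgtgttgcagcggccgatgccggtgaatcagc
Psmb6: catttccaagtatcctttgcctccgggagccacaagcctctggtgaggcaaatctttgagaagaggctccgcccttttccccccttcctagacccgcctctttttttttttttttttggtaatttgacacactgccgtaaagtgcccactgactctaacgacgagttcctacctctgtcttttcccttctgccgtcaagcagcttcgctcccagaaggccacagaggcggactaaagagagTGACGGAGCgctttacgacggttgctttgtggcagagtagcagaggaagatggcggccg
Psme4: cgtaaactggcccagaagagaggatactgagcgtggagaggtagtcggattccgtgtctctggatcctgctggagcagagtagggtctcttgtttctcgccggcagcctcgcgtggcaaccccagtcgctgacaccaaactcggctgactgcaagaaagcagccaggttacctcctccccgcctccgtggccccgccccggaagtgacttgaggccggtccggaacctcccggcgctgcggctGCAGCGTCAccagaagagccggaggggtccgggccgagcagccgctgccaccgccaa

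Of the 51 genes, 43 had such a window in the table, and Psma8, Psmb1, Psmb2, Psmb7, Psmc3, Psmd3, Psmd7 and Psmg2 did not. TGACNNNGC, searched on both strands, was found in 6 of the 43 (Psmb5, Psmb6, Psmc6, Psmd9, Psmd12 and Psme4) and in 12.4% of all 32851 windows, a similar share. The match begins 47 bases before the start in Psmb5 and 9 bases before it in Psmb6, and in Psme4 it spans the start. CCAAT, the box bound by NF-Y, occurred in 15 of the 43 windows and in 37.4% of all windows, and it does not overlap the other motifs in the printed sequences. A match describes letters and not a bound site.

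The 3 immunoproteasome subunits, which replace the catalytic subunits in cells exposed to interferon, also rose before 2 wks. Psmb10 went from 1.12, 3.94, 2.86 and 2.36 CPM at E18.5 to 14.995, 14.9, 16.8 and 16.9 at 2 wks, and measured 9.73, 15.8, 19.4 and 14.3 at 7 wks. No E18.5 library reached the postnatal range, and the early rise was 6.18-fold (log2 2.63 ± 0.31, edgeR adjusted p = 9.34e-06). Psmb9 measured 0.340, 0.655, 0.692 and 0.604 CPM at E18.5, 2.13, 2.04, 3.94 and 3.84 at 2 wks, and 3.23, 5.08, 4.53 and 3.05 at 7 wks, a 5.2-fold early rise (log2 2.38 ± 0.31, edgeR adjusted p = 1.99e-05). Psmb8 measured 0.645, 1.55, 1.49 and 1.21 CPM at E18.5, 4.65, 5.58, 7.02 and 6.43 at 2 wks, and 5.56, 9.41, 7.32 and 5.81 at 7 wks, a 4.83-fold early rise (log2 2.27 ± 0.28, edgeR adjusted p = 1.16e-05). For all 3 the postnatal ages overlapped, and none was called between 2 wks and 7 wks (log2 -0.10, 0.41 and 0.25 for Psmb10, Psmb9 and Psmb8). The early rise of each was called without E18.5 replicate 1, with total counts (log2 1.69, 1.42 and 1.32 in the same order) and with the GC trend removed (2.00, 1.86 and 1.63). Raw counts of these genes were between 49 and 1449, and Psmb9 shares 743 exonic bases with Tap1 on the opposite strand.

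Immunoproteasome transcripts stayed below their constitutive counterparts in every library. Psmb8 stood at 21.4% to 38.7% of Psmb5 per coding length at E18.5, 14.1% to 24.96% at 2 wks, then 17.6% to 43.6% at 7 wks. Psmb9 stood at 1.003% to 1.48% of Psmb6, then 1.07% to 2.39% and 1.76% to 3.43%. Psmb10 stood at 0.805% to 3.57% of Psmb7, then 5.06% to 6.24% and 2.95% to 4.51%. Of the 9 comparisons of these ratios between ages, Psmb10/Psmb7 was higher at 2 wks than at E18.5 in 16 of 16 pairs of libraries (log2 difference 1.67, two-sided exact permutation p = 0.0286, the smallest that 4 against 4 allows) and lower at 7 wks than at 2 wks in 16 of 16 pairs (-0.54, exact p = 0.0286), and Psmb9/Psmb6 was higher in 16 of 16 pairs at 7 wks than at E18.5 (0.93, exact p = 0.0286). After adjustment over the 9 comparisons each of these 3 had p = 0.0858 by the exact permutation test, so none passed the threshold. Psmb8/Psmb5 differed by 0.01 between E18.5 and 7 wks (exact p = 1).

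**Figure D5:**
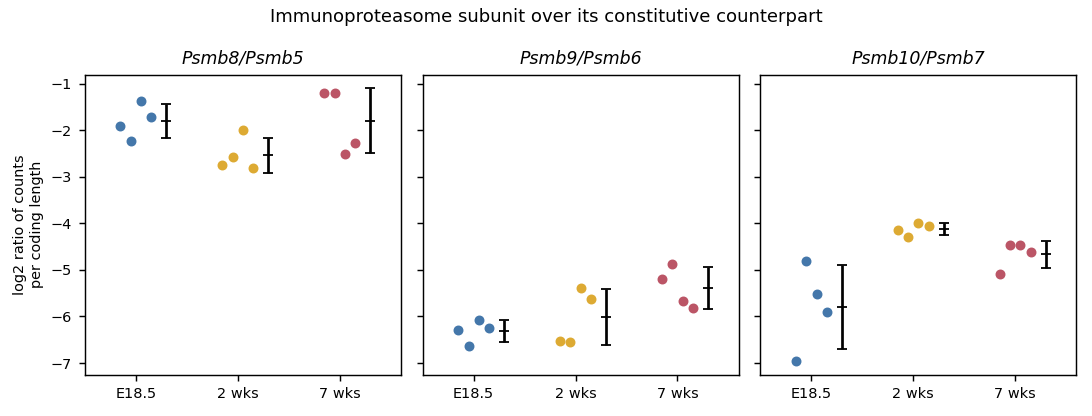
Log2 ratio of counts per coding length of each immunoproteasome subunit to the constitutive subunit it replaces, in each of the 12 libraries; the bars are the mean and SD of 4 mice. Psmb8/Psmb5 overlaps between the ages, while Psmb10/Psmb7 is lowest at E18.5 and does not overlap between E18.5 and 2 wks.

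Among 14 genes of the interferon response and class I presentation, 10 rose and 0 fell to 2 wks (31.5% and 34.2% of all tested genes), and 5 rose and 0 fell to 7 wks (13.5% and 13.9%); with total counts the early numbers were 4 higher and 6 lower. Tap1, which loads peptides into the endoplasmic reticulum, rose 3.37-fold and its partner Tap2 by a log2 of 2.33, while the interferon signal transducer Stat2 (log2 -0.07) was not called. Markers of leukocytes, cells rich in immunoproteasome, did not rise as a list: 1 of 10 rose (Cd3e, at 0.0691 CPM at E18.5 and 0.232 at 2 wks) and 2 fell (Ptprc and Adgre1), and the summed level was 96.0 to 151 CPM at E18.5, 76.1 to 98.8 at 2 wks, then 39.04 to 91.0 at 7 wks. Of 5 endothelium markers 3 rose and 0 fell to 2 wks (median log2 0.70). The summed endothelium level was 341 to 484 CPM at E18.5, 727 to 887 at 2 wks, then 441 to 742 at 7 wks. The part of either list in the values of Psmb8, Psmb9 and Psmb10 was not tested beyond this. The neighbouring promoters of Psmb8 and Psmb9 on chromosome 17 are shown because the pair lies within the class II region beside Tap1 and rose together; capitals mark TTCNNNGAA, the gamma-activated site of STAT factors, in Psmb8 and CCAAT, here on the other strand, in Psmb9. The windows are chr17:34197945-34198244, plus strand, and chr17:34187281-34187580, minus strand.
Psmb8: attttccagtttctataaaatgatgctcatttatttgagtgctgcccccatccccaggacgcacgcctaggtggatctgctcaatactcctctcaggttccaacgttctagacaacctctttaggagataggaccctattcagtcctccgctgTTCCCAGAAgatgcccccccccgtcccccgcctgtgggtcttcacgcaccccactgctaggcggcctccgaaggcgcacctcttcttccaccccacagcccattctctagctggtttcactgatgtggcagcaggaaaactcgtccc
Psmb9: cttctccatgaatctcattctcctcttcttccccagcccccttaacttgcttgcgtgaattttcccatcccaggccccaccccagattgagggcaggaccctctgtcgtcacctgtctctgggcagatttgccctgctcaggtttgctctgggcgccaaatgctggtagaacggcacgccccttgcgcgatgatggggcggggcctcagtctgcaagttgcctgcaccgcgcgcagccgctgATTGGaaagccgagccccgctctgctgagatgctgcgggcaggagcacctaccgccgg

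TTCNNNGAA, which reads the same on both strands, was found in 3 of 43 windows (Psmb8, Psmd2 and Psmg1) and in 8.3% of all windows. GAAANNGAA, the interferon response core, was searched on both strands and found in 6 (Psmb3, Psmb4, Psmd4, Psmd9, Psme1 and Psmg4) and in 8.56% of all windows. The windows of Psmb8, Psmb9 and Psmb10 do not hold these letters of GAAANNGAA.

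The tissue-restricted core subunits were close to absent. Psma8, the alpha subunit of the testis proteasome, measured 0.728, 0.585, 0.532 and 0.608 CPM at E18.5, 0.101, 0.0721, 0.137 and 0.274 at 2 wks, and 0.140, 0.140, 0.0460 and 0.0330 at 7 wks. Its E18.5 libraries lay above all postnatal ones, and the fall to 2 wks was a log2 of -2.07 ± 0.44 (edgeR adjusted p = 0.000994) on raw counts of 2 to 122. It was the largest decrease of any proteasome gene in that interval. Of 3 germ cell genes, Ddx4 and Sycp3 fell in the same interval and Dazl did not pass, and their summed level went from between 1.18 and 3.85 CPM to between 0.123 and 0.261; its part in the Psma8 value was not tested. Psmb11, the subunit of the thymus proteasome, had 0 to 4 counts in a library and was not tested.

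Most genes of the regulatory particle rose early. Of 17 base and lid genes, 14 rose and 0 fell to 2 wks (median log2 0.73), where 31.5% and 34.2% of all tested genes did. With total counts 2 rose and 7 fell (median -0.20), against 2550 and 11923 of all 19276 tested genes. Among the 6 ATPases, which unfold the substrate, 5 rose, from 1.47-fold for Psmc1 to 2.7-fold for Psmc5 (log2 1.43 ± 0.17, edgeR adjusted p = 1.03e-05), and Psmc6 was not called (log2 0.06). Psmc5 shares 1269 exonic bases with Smarcd2 on the opposite strand. Among the 8 lid genes 7 rose, led by Psmd3 at 2.77-fold (edgeR adjusted p = 0.000299). Psmd14, the lid enzyme that cuts ubiquitin chains from the substrate, was not called in either interval: it measured 75.1, 55.5, 62.4 and 62.7 CPM at E18.5, 66.5, 72.0, 74.6 and 68.6 at 2 wks, and 89.1, 89.8, 92.4 and 80.0 at 7 wks, and its 7 wks libraries lay above all others (log2 0.32 ± 0.12 from 2 wks, edgeR adjusted p = 0.072). Psmd4, a ubiquitin receptor of the base, rose from 30.3, 64.7, 51.1 and 46.7 CPM to 129, 125, 132 and 128 at 2 wks, without overlap (2.67-fold, log2 1.42 ± 0.21, edgeR adjusted p = 6.48e-05), and measured 136, 149, 225 and 182 at 7 wks (log2 0.42, edgeR adjusted p = 0.15).

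Psmd1 and Psmd2, the large scaffold subunits of the base, both rose after 2 wks, and Psmd2 rose before 2 wks as well. Psmd1 measured 143, 114, 126 and 120 CPM at E18.5 and 89.3, 102, 135 and 125 at 2 wks, which overlapped (log2 -0.16 ± 0.15, edgeR adjusted p = 0.37), and then 245, 222, 198 and 208 at 7 wks. All 7 wks libraries exceeded all earlier ones, with a rise from 2 wks of 1.94-fold (log2 0.95 ± 0.15, edgeR adjusted p = 0.000739). Psmd2 measured 138, 166, 169 and 155 CPM, then 190, 213, 250 and 239, then 374, 387, 454 and 405, with no overlap between ages. Its steps were 1.42-fold (edgeR adjusted p = 0.00593) and 1.82-fold (log2 0.86 ± 0.14, edgeR adjusted p = 0.000793), and with total counts the first step turned to a decrease (log2 -0.44) while the second was still called (log2 0.52). Per coding length Psmd1 stood at 44.0 CPM per kb at E18.5, close to Psmd4 at 42.8, and at 39.4 against 114 at 2 wks and 76.3 against 153 at 7 wks. Mean log2 CPM of the 19S genes, not divided by coding length, exceeded that of the core genes by 0.11 to 0.31 at E18.5. The gap was 0.08 to 0.29 at 2 wks, then 0.26 to 0.57 at 7 wks, ranges that overlap. Most 19S genes have longer coding sequences than the core genes, so this gap does not rank the abundance of the 19S against the core.

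Psme4, which encodes the PA200 activator, a cap that works without ubiquitin or ATP, had the largest increase after 2 wks (ENSMUSG00000040850, GRCm39 chr11:30721725-30830376, plus strand). It measured 171, 95.8, 113 and 133 CPM at E18.5, 184, 222, 254 and 231 at 2 wks, and 529, 481, 444 and 459 at 7 wks. The 3 ages were fully separated. The first step was 1.74-fold (log2 0.80 ± 0.18, edgeR adjusted p = 0.00148) and the second 2.15-fold (log2 1.10 ± 0.18, edgeR adjusted p = 0.00082). With total counts the first step became -0.14 and was not called, whereas the second stayed at 0.76 (edgeR adjusted p = 0.00427), and without any one library the second ranged from 1.01 to 1.17.

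None of the other activators was called after 2 wks. Psme1, one component of the interferon-inducible PA28 ring, measured 14.3, 17.4, 21.8 and 27.6 CPM at E18.5 and 31.5, 34.2, 37.2 and 41.2 at 2 wks, without overlap, a 1.77-fold rise (log2 0.83 ± 0.22, edgeR adjusted p = 0.0045) that total counts turned to -0.11. Its partner Psme2 measured 29.98, 41.1, 61.5 and 63.5 CPM at E18.5 and 42.2, 44.4, 39.2 and 37.1 at 2 wks and was not called (log2 -0.27, edgeR adjusted p = 0.27), though it was called lower when E18.5 replicate 1 was left out (log2 -0.44). Per coding length Psme1 amounted to 34.0% to 45.9% of Psme2 at E18.5, 71.5% to 107% at 2 wks, then 78.5% to 107% at 7 wks, higher in 16 of 16 pairs of libraries at 2 wks than at E18.5 (log2 difference 1.07, exact permutation p = 0.0286, p = 0.0644 after adjustment over 9 activator comparisons). Psme1 shares 2192 exonic bases with Emc9, and Psme2 shares 731 with Rnf31, on the opposite strands. Psme3, the nuclear PA28 subunit, lay between 50.8 and 58.8 CPM at E18.5, 55.1 and 65.7 at 2 wks, then 72.2 and 83.9 at 7 wks, and neither step was called (log2 0.13 and 0.31; -0.81 and -0.03 with total counts). Psme2b, a near-identical copy of Psme2 whose reads could be split from it, lay between 0.381 and 1.30 CPM throughout, with log2 changes of -0.35 and 0.42, neither called. Psme4/Psme1 per coding length was 75.6% to 92.2% at 2 wks, then 107% to 248% at 7 wks, higher in 16 of 16 pairs (log2 0.96, exact permutation p = 0.0286, adjusted p = 0.0644).

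Psmf1, the PI31 protein known as an inhibitor of the core in vitro, rose early. It measured 10.4, 13.2, 12.3 and 10.5 CPM at E18.5, 22.8, 23.1, 22.4 and 23.5 at 2 wks, and 21.1, 23.2, 29.0 and 23.1 at 7 wks. The first step was 1.98-fold (log2 0.99 ± 0.14, edgeR adjusted p = 3.26e-05), with no overlap, and the second was 0.07 on the log2 scale (edgeR adjusted p = 0.74). With total counts the first was 0.05. Psmf1 shares 942 exonic bases with Tmem74b on the opposite strand.

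The assembly chaperones split. Of the 4 that build the core, Psmg3 and Psmg4, partners in one heterodimer, rose 2.74-fold (log2 1.46 ± 0.22, edgeR adjusted p = 7.14e-05) and 2.99-fold (log2 1.58 ± 0.37, edgeR adjusted p = 0.00197), while in the other heterodimer Psmg2 rose 1.44-fold (log2 0.53, -0.39 with total counts) and Psmg1 fell to 0.759 of its E18.5 level (log2 -0.40, edgeR adjusted p = 0.038), a call lost without any 1 of 7 libraries. Psmg3 went from between 0.998 and 1.52 CPM to between 3.15 and 3.37 and then between 1.69 and 3.05. Psmg4 went from between 1.02 and 1.65 to between 2.48 and 5.23 and then between 0.883 and 3.80. Both had their highest values at 2 wks, with later changes of -0.43 and -0.73 that were not called (edgeR adjusted p = 0.17 and 0.16); total counts called them lower (-0.78 and -1.08), as did leaving out 7 wks replicate 3 for Psmg4 (-1.15).

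Of the chaperones that build the base, Psmd10 (gankyrin) and Psmd5 fell and Psmd9 rose. Psmd10 measured 27.1, 17.3, 19.5 and 20.6 CPM at E18.5 and 11.1, 12.02, 10.8 and 11.2 at 2 wks, then 12.5, 14.2, 15.7 and 12.7 at 7 wks. Every E18.5 value exceeded every postnatal one, and at 2 wks the gene was at 0.535 of its E18.5 level (log2 -0.90 ± 0.15, edgeR adjusted p = 0.000165). Psmd5 measured 34.9, 26.99, 34.4 and 31.9 CPM, then 20.3, 21.7, 25.3 and 24.6, then 27.1, 25.9, 26.7 and 23.3 (0.716 of the E18.5 level at 2 wks, log2 -0.48 ± 0.13, edgeR adjusted p = 0.00496). With the GC trend removed neither was called, at -0.23 for Psmd10 and 0.06 for Psmd5. Psmd9 measured 8.44, 10.9, 9.11 and 7.55 CPM and then 20.5, 20.9, 18.7 and 23.7, a 2.33-fold rise without overlap (log2 1.22 ± 0.18, edgeR adjusted p = 4.47e-05; not called with total counts), and stayed at 15.4, 18.2, 26.1 and 20.2 at 7 wks. Markers of cycling cells were lower as well, with all 6 fallen in both intervals, and their part in these values was not tested.

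The change from 2 wks to 7 wks was also tested against the change from E18.5 to 2 wks (later minus earlier). The test called 15 of 50 genes lower and 3 higher, where 21.6% and 16.8% of all tested genes were called. The lower ones, whose change was more positive before 2 wks, were led by Psmb5 (log2 -3.39, edgeR adjusted p = 0.000773), Psmb10 (-2.73), Psmg4 (-2.31), Psmb6 (-2.15), Psmb8 (-2.03), Psmb9 (-1.97) and Psmg3 (-1.88). The higher ones were Psmd10 (1.19) and Psmd5 (0.65), which fell early and were not called late, and Psmd1 (1.11, edgeR adjusted p = 0.00647), which was called higher late. With total counts 14 were called higher and 7 lower, against 6104 and 2326 of all 19276 tested genes. With the GC trend removed the numbers were 0 and 22, against 2185 and 3959 of all tested genes. Without 7 wks replicate 3, in which proteasome genes were high, 23 were called lower, against 4452 of 19915. Psme4, with 0.31, was not called (edgeR adjusted p = 0.46), nor was Psmd2 (0.36, edgeR adjusted p = 0.26).

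That library stood apart for the core as a whole. The median log2 CPM of the 14 core genes was 7.44 in 7 wks replicate 3 and 6.76 to 6.97 in the other 7 wks libraries, against 6.71 to 6.89 at 2 wks and 6.21 to 6.38 at E18.5. Without it, 7 genes rose and 1 fell between 2 wks and 7 wks, with a median of 0.15, against 2716 and 2497 of all 19915 tested genes. The share that rose was then similar to that of all tested genes. Psma1, Psma6 and Psmb7 lost the call, and Psmc2, Psmc6, Psmd1, Psmd2, Psmd7, Psmd11 and Psme4 kept it. The number that rose was 5 without 2 wks replicate 1 (1548 of all 19871 tested genes), without 2 wks replicate 2 (1691 of 19894) or without 7 wks replicate 2 (1892 of 19937). It was 13 without E18.5 replicate 1 (3097 of 19556).

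Lists of proteins that work with the proteasome but do not carry the Psm name were read against the same shares of all tested genes. Of 11 further subunits and receptors 6 rose (54.5%) and 4 fell (36.4%, near the 34.2% of all genes) to 2 wks, and 4 rose (36.4%) and 0 fell to 7 wks; with total counts the early numbers were 3 and 5. The base subunit Adrm1, another ubiquitin receptor, rose from 9.16, 22.7, 15.4 and 13.0 CPM to 65.4, 61.1, 66.3 and 70.7 at 2 wks (4.37-fold, edgeR adjusted p = 1.81e-05), and Ecpas, which tethers the 19S to the core, rose in both steps (1.68-fold and 1.82-fold). Usp14, a deubiquitinase docked on the base, fell early (log2 -0.68) and rose later (0.52). In the list of 7 assembly and import factors 6 matched the annotation, of which 2 rose (Pomp and Zfand5) and 2 fell (Ipo9 and Akirin2) to 2 wks, 33.3% each and near the background, against 0 and 4 with total counts.

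Nfe2l1, which encodes NRF1, the factor known to drive proteasome genes when proteasome activity is short, rose through both intervals. It measured 93.9, 148, 122 and 129 CPM at E18.5, 303, 326, 513 and 621 at 2 wks, and 891, 1004, 879 and 963 at 7 wks, without overlap between ages (3.58-fold, edgeR adjusted p = 1.42e-05, then 2.12-fold, edgeR adjusted p = 0.00363). The full list of 12 genes of proteasome transcription had 4 that rose and 4 that fell early (33.3% each, near the 31.5% and 34.2% of all tested genes; 1 and 8 with total counts) and 6 that rose and 0 that fell later (13.5% and 13.9% of all tested genes). Ddi2 and Ngly1, which activate NRF1, were among the 6, with log2 changes of 0.68 and 0.81. Of 6 ubiquitin and E1 genes 2 rose and 2 fell (Rps27a and Uba6) early, again 33.3% each and near the background. Later 0 rose and 1 fell (16.7%, near the 13.9% of all tested genes). With total counts 1 rose and 4 fell early. Of 8 genes of the p97 unfoldase and its cofactors 4 rose (50%) and 1 fell (12.5%) early, against 31.5% and 34.2% of all tested genes. Later 4 rose (50%), among them Vcp itself (log2 0.57, edgeR adjusted p = 0.00721), and 0 fell, against 13.5% and 13.9%. With total counts 1 rose and 6 fell early.

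The 2 genes that share the name but are not subunits were not tested against the subunits. Psmc3ip lay between 1.70 and 3.03 CPM in all libraries and was not called in either interval (log2 -0.19 and 0.19). It shares 1109 exonic bases with Mlx on the opposite strand. Psme3ip1 rose to 2 wks from between 17.2 and 18.6 CPM to between 24.1 and 28.6 (1.48-fold, log2 0.56 ± 0.15, edgeR adjusted p = 0.00419), and with total counts its log2 change was -0.36.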

How the data were processed

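RNA of tibialis anterior muscles from 12 mice was sequenced as stranded, polyA-selected, paired-end libraries. The authors deposited 1 table of raw read counts per Ensembl gene, whole numbers without normalization; per the labels, the tools were bcl2fastq 2.17.1.14, cutadapt 1.10, STAR 2.5.3a and HTSeq 0.6.1p1 with build mm10, whereas the study's methods name GRCm39. The annotation and the strand setting of the counting are not given in the sources used here, so reads of genes that overlap on opposite strands cannot be told apart. Gene names, coding lengths and GC content came from GENCODE M39 (GRCm39), which matched 51477 of 55450 genes.

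Genes were filtered with filterByExpr (19276 kept, 36174 removed) and tested in 1 fit over all 12 libraries with edgeR 4.0.16 (R 4.3.3): TMM scaling, quasi-likelihood F test, Benjamini-Hochberg adjustment over all tested genes and a threshold of 0.05; the biological coefficient of variation was 0.279. The script was tested on simulated data. CPM are TMM scaled. Ratios between genes used counts per coding length and two-sided exact permutation tests, whose smallest p with 4 against 4 is 0.0286. Alternatives were other scalings, DESeq2 1.42.0, other filters, GC and length trends, a replicate block and leaving out each library. Replicates differed far beyond sampling noise (chi-square per degree of freedom 34.3 to 577). The labels number the mice but name no litter, so p-values measure the spread between these samples.

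Values were named for the catalytic, immunoproteasome, tissue-restricted, activator, inhibitor and chaperone genes, Psmd4 and Psmd14, the 3 largest rises and falls in each interval, the extremes of abundance within a role, the 2 genes that are not subunits, and genes of the lists; others are given by counts and ranges, except that Psma3, Psma5 and Psma7, Psmb3, Psmc1, Psmc5, Psmc6 and Psmd3 were named after their values were seen. So were Psma1, Psma2, Psmb2, Psmc2 and Psmd11, for a flagged library or for a late call kept or lost. The members and lists were chosen with earlier results of these data known. Motifs were searched in the promoter windows with Python 3.11.15, and figures were drawn with matplotlib 3.10.9. Values of some genes of the lists are not reported here.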

Additional observations from a re-analysis of the deposited data

Results flagged for a closer look

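Among the 150 sets of 4 libraries (50 tested proteasome genes at 3 ages), 8 held a library that stood apart from the other 3 by Dixon's criterion, where chance flags about 1 in 20 sets, 7.5 here. In 5 of the 8 the library was 7 wks replicate 3, always the highest: Psma2 at 158 CPM, Psmc1 at 218, Psmc2 at 239, Psmd7 at 245 and Psme3ip1 at 40.1. The other 7 wks libraries lay between 128 and 131, 168 and 176, 189 and 192, 178 and 188, and 25.9 and 27.7 CPM in the same order. Psmb2, a structural beta subunit, was at 24.9 CPM in E18.5 replicate 1 and at 41.9 to 44.7 in the other E18.5 libraries. Psma7 was at 102 CPM in 2 wks replicate 4 and at 94.5 to 95.7 in the others, and Psmg4 was at 1.65 CPM in E18.5 replicate 2 and at 1.02 to 1.10 in the others. The cause was not tested.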

How the results depend on the processing

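The scaling changed many calls. With total counts the genes that rose and fell numbered 7 and 22 from E18.5 to 2 wks (median log2 change -0.198), 3 and 2 from 2 wks to 7 wks (-0.080) and 8 and 22 from E18.5 to 7 wks (-0.26), and the test between intervals gave 14 higher and 7 lower. In the same order the numbers over all 19276 tested genes were 2550 and 11923, 948 and 5392, 2291 and 13297, and 6104 and 2326. Single genes with the opposite sign under total counts were Psme1 (-0.11), Psme3 (-0.81), Psme4 (-0.14), Psmg2 (-0.39), Psmd14 (-0.79), Psmd2 (-0.44) and Psme3ip1 (-0.36) early, and Psmb8 (-0.091), Psme1 (-0.16), Psme2 (-0.29), Psme3 (-0.033), Psmf1 (-0.28), Psmd5 (-0.18), Psmd10 (-0.069), Psmd14 (-0.030), Psma5 (-0.22), Psma7 (-0.023), Psmc3ip (-0.16) and Psme3ip1 (-0.19) late. Upper-quartile scaling gave 5 that rose late, a share similar to the 1902 of all 19276 tested genes, and a median of 0.78 from E18.5 to 7 wks. It gave opposite signs for Psme3 (-0.011) and Psmd14 (-0.0015) early and Psme2 (-0.034) and Psmf1 (-0.036) late. Without a filter 5 rose late, against 2044 of all 34893 genes.

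With the GC trend removed 3 fell early, 2 fell from E18.5 to 7 wks and 0 were higher between intervals. In the same order the numbers over all 19276 tested genes were 6034, 7176 and 2185. Psmd5 (0.06) and Psmd1 (0.24) early and Psmb10 (0.072) and Psmf1 (-0.015) late changed sign. With the length trend removed 10 fell early (median 0.44), 19 rose late and 8 were higher between intervals. Over all 19276 tested genes the numbers were 7036, 2835 and 3341. The median of the members from E18.5 to 7 wks was 0.77. Psmg2 (-0.032) and Psmd14 (-0.049) early and Psmg1 (0.069) and Psmg2 (0.022) late changed sign. The cause was not tested.

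Leaving out 1 library at a time, 3 to 6 fell early, 5 to 13 rose and 0 to 1 fell late, 2 to 4 fell from E18.5 to 7 wks, and 10 to 23 were lower between intervals. Over all tested genes of these fits, 6100 to 6972 fell early, and 1548 to 3097 rose and 1924 to 3048 fell late. From E18.5 to 7 wks 6899 to 7340 fell, and 3209 to 4762 were lower between intervals. In the later interval, signs changed for Psmg1 (-0.17 to 0.052), Psmg2 (-0.17 to 0.012), Psmb10 (-0.26 to 0.052), Psmd9 (-0.22 to 0.040), Psme2 (-0.0081 to 0.16) and Psmf1 (-0.033 to 0.13). Psmb8/Psmb5 from E18.5 to 7 wks ranged from -0.19 to 0.24. The 3 immunoproteasome ratios averaged changed by 0.41 early and 0.28 late, and as a ratio of sums by 1.10 and -0.084. Of 1229 values of single genes under an alternative, 1133 kept direction and side of the threshold.

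A replicate block on the mouse numbers gave 34 and 5 early, 7 and 0 late and 40 and 3 from E18.5 to 7 wks. In the same order the numbers over all 19276 tested genes were 6076 and 6394, 2440 and 2709, and 6592 and 7019. With the block Psma1, Psma6 and Psmb7 lost the late call. For the ratios the smallest p of a paired sign-flip test is 0.125. Same-numbered libraries of different ages correlated between -0.28 and 0.51, and differently numbered ones between -0.50 and 0.38. These overlapping ranges do not show whether the numbers pair the mice. Among the tested genes Psma8, Psmb8, Psmb9, Psmc3ip, Psme2b, Psmg3 and Psmg4 had under 100 counts in some libraries. The largest SE of the early log2 change were those of Psma8 (0.44), Psmb5 (0.37), Psmg4 (0.37) and Psme2b (0.36).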

Other observations

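Of the 5 annotated pseudogenes named after proteasome genes, Psma5-ps held 38 to 53 counts in the E18.5 libraries, 8 to 17 at 2 wks and 14 to 18 at 7 wks. The other 4, copies of Psmb5, Psmb6 and Psmb7, held 0 to 3 counts in a library.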
